A study of Mus musculus with 16 samples.

Results

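The genes described here are the nuclear genes named Nduf, which encode subunits and assembly factors of respiratory complex I. They were taken by symbol, as every gene whose name begins with Nduf other than 1 row marked -ps as a pseudogene, which gave 46 of the 54108 gene symbols in the count table. All 46 passed the filter on low counts, among 16051 genes tested, and all 46 are protein-coding in GENCODE release M21, on 17 chromosomes. The name does not follow function exactly, because Ndufa4 is now regarded as a subunit of complex IV and Ndufa4l2 is its paralog.

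RNA came from heart ventricles of mice at 8 weeks of age. Both genotypes carried floxed Rbpms alleles (Rbpms fl/fl), and Rbpms encodes an RNA-binding protein. The cardiac knockout (cKO) mice also carried Myh6-Cre, in which the Myh6 promoter drives the recombinase in heart muscle cells, and the control mice carried no Cre, so effects of Cre and of the loss of Rbpms cannot be told apart. Each genotype had 4 libraries (3 male, 1 female), and in both the female is replicate 3. Whether 1 library is 1 animal is not stated in the labels, so the spread behind each p-value is that between libraries.

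Complex I (NADH:ubiquinone oxidoreductase) is the entry point of electrons from NADH into the respiratory chain and is among the largest enzymes of the inner mitochondrial membrane. It has an arm in the matrix, which oxidises NADH and reduces quinone, and a membrane arm that pumps protons. A conserved catalytic core, made partly in the mitochondria and partly in the cytosol, is wrapped by supernumerary subunits, and assembly factors join the modules without staying in the enzyme. The heart, which burns mainly fatty acids, is rich in it.

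Transcripts of complex I genes were lower in cKO ventricles at the scaling used here. Of the 46 Nduf genes 31 fell and 0 rose at an adjusted p under 0.05 (edgeR quasi-likelihood test), while over all tested genes 9.64% fell and 9.64% rose. At an unadjusted p under 0.05, 39 Nduf genes were lower and 1, Ndufb3, was higher. Over all tested genes 15.9% were lower and 15.6% higher at that level. DESeq2 and limma-voom also called 0 Nduf genes higher at an adjusted p under 0.05. The 31 called falls ran from 1.22-fold to 1.48-fold, a range whose lower end depends on the threshold. Over all 46 genes the log2 fold changes ran from -0.56 to 0.24. A log2 fold change below 0 was found for 44 of the 46, and their median was -0.35, against 0.01 over all tested genes. Summed over the 46 genes, the controls held 8238, 8554, 9092 and 9497 CPM (counts scaled to library size) and the cKO libraries 6843, 7137, 6311 and 7342. The sum was thus lower in each cKO library than in each control, with means of 8845 ± 559 and 6908 ± 448 CPM (SD, n = 4), a difference of -21.9%.

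These values were set against levels of cell markers. In bulk tissue, fewer cells of a type and less RNA per cell cannot be told apart. Of 14 cardiomyocyte markers 3 fell (Tnni3, Ryr2 and Ckm) and 0 rose, with a median log2 fold change of -0.20, and their summed level was 54709 to 71516 CPM in controls and 48239 to 57053 in cKO. All 10 fibroblast markers rose, with a median log2 fold change of 1.05, and their sum went from 2597 to 3511 CPM in controls to 5428 to 6329 in cKO. Per 1000 CPM of the cardiomyocyte markers, the Nduf genes held 128.5, 156.4, 149.5 and 132.8 CPM in controls and 129.4, 125.1, 130.8 and 143.2 in cKO. On that ratio the genotypes overlapped, with means of 141.8 ± 13.3 and 132.1 ± 7.77 (SD, n = 4), a difference of -6.80%. The marker sum is weighted towards its most abundant genes, Myh6 (16000 to 22843 CPM in controls) and Ttn (8608 to 12539). The test was also scaled to the geometric mean of those 14 markers, a choice added after the data were seen. In that fit 2 Nduf genes were called lower (Ndufa8 and Ndufs8) and 1 was called higher (Ndufb3). A negative log2 fold change was found for 35 of 46. Over all 16051 tested genes it called 480 lower (2.99%) and 3465 higher, so 87.8% of its calls were higher. The Nduf median log2 fold change was then -0.10 and the summed difference -7.41%, while the median of all tested genes moved up by 0.24. The part that cell composition has in the lower Nduf levels was not tested.

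**Figure D1:**
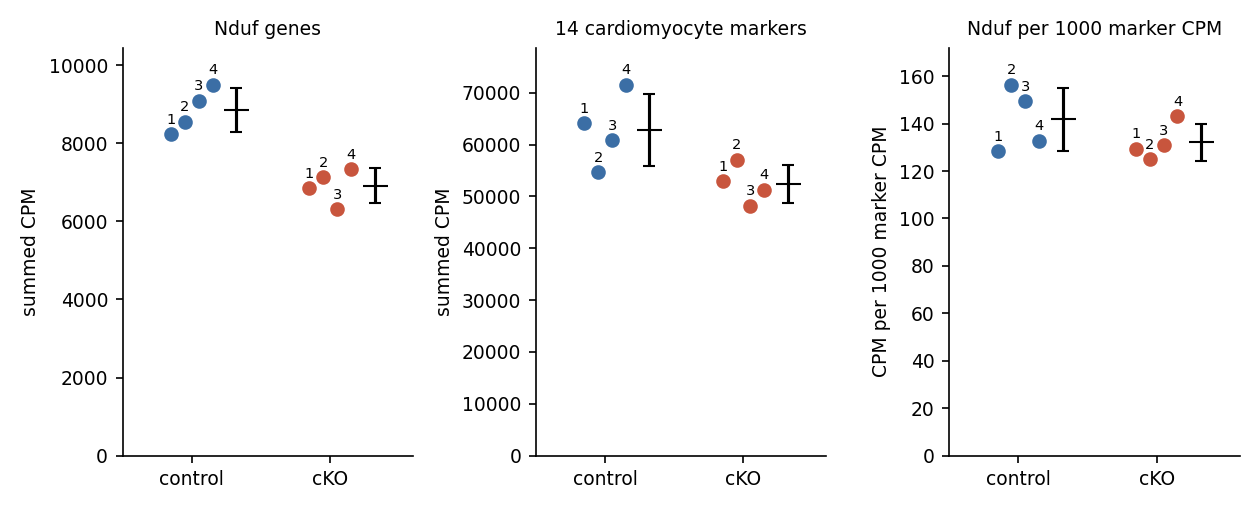
Summed CPM of the 46 Nduf genes, summed CPM of 14 cardiomyocyte markers, and Nduf CPM per 1000 CPM of those markers, in each of 4 control and 4 cKO libraries (points, numbered by replicate; bars, mean ± SD). The Nduf sums do not overlap (8238 to 9497 against 6311 to 7342), whereas the ratios to the markers do (128.5 to 156.4 against 125.1 to 143.2).

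The RNA libraries were comparable in depth, with 20190334 to 24540433 counts each, and a Nduf gene had 157 to 21189 counts in a library. Before the TMM scaling that the CPM values here include, 1 CPM would stand for about 20.2 to 24.5 reads. Rbpms itself held 101.6 to 193.2 CPM in controls and 26.9 to 38.8 in cKO. Control 4 stood apart in its counts for the skeletal muscle myosins Myh4, Myh1 and Myh2, at 1113, 215 and 163, against at most 7 in any other library, and 11.8% of its counts came from mitochondrially encoded genes, against 8.03% to 10.05% elsewhere. cKO 1 held 122 counts of Ucp1, the brown fat uncoupling protein, against 0 in all controls and at most 4 in the other cKO libraries. Control 1, the lowest control for most Nduf genes, held more of the atrial genes Myl7 (92.6 CPM, against 17.1 to 32.5 in the other controls), Myl4 (96.0, against 25.8 to 37.3) and Sln (12.3, against 1.67 to 6.99). cKO 4, the highest cKO library for many Nduf genes, held more Myl4 (167.5 CPM, against 39.1 to 79.2 in the other cKO libraries) and more of the adipocyte genes Adipoq (5.29, against 0.91 to 1.95), Plin1 (6.53, against 0.99 to 2.61) and Cfd (10.4, against 0.91 to 1.99). Control 3 likewise held more Adipoq (2.44 CPM, against 0.39 to 0.50 in the other controls), Plin1 (2.53, against 0.68 to 0.78) and Cfd (3.70, against 0.42 to 1.09). The part of such tissue in the Nduf levels was not tested. Of the other marker lists, brown adipocyte genes rose for 2 of 5 tested, Cidea and Dio2 (sum 21.98 to 27.7 CPM in controls, 38.2 to 56.2 in cKO). Adipoq, Plin1 and Cfd were not called, and Ucp1 did not pass the filter on low counts. Macrophage genes rose for 3 of 10 (225.3 to 349.7, 364.2 to 415.1) and endothelial genes for 1 of 10 (1559 to 1867, 1445 to 1758). Over all tested genes 9.64% rose and 9.64% fell, so 1 of 10 is near the share of all genes. The median log2 fold change of the endothelial genes was -0.03. Smooth muscle and pericyte genes rose for 1 and fell for 2 of 10 (3111 to 3769, 3366 to 3902). Red blood cell genes rose for 0 of 6 (230.2 to 395.0, 166.4 to 463.8). Atrial genes rose for 1 of 5 tested, Nppa, and 4 were not called (list sum 90.6 to 261.0, 528.9 to 652.1). Skeletal muscle genes rose for 1 of 4 tested, Acta1, and 3 were not called (list sum 77.8 to 741.7, 1944 to 2542). The largest log2 fold changes in these lists were 2.84 and 2.91, and both medians were 0.61. Each sum includes the called gene, so its rise need not hold for the rest of the list.

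The Nduf sum stayed lower in cKO without each of these libraries. Percentages in parentheses below are the share of all genes in the same fit that were called lower. Without control 4 the difference was -20.1% and 26 Nduf genes were lower (8.64% of all genes in that fit), and without cKO 1 -21.7% with 20 lower (6.75% of all). Without cKO 3, the lowest library, it was -19.7% with 22 lower (7.52% of all). Without control 1 it was -23.8% with 29 lower (8.33%), and without cKO 4 -23.6% with 29 lower (7.95%). Without control 3 it was -21.3% with 26 lower (8.67%) and 1 higher, Ndufb3. Whichever library was left out, 43 to 45 of the 46 genes had a negative log2 fold change, while calls near the threshold changed. These fits share most libraries and the same way of scaling, and the genes move together. The counts of negative genes are therefore no separate support for the direction. Scaled to the cardiomyocyte markers, 35 of 46 were negative.

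**Figure D2:**
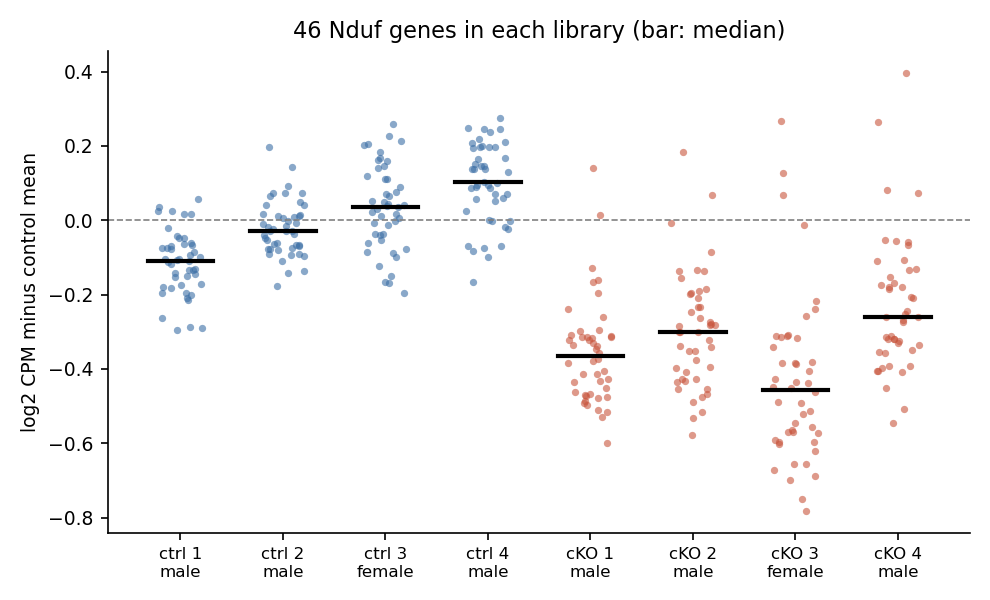
Each point is 1 of the 46 Nduf genes in 1 library, as log2 CPM minus the mean of that gene in the 4 controls, and black bars are medians. Medians run from -0.11 to 0.10 in controls and from -0.46 to -0.26 in cKO libraries, and a few genes of each cKO library, Ndufb3 among them, lie above 0.

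The libraries differed from each other within a genotype for many Nduf genes at once. Among controls, control 4 was the highest for 29 of the 46 genes and control 1 the lowest for 30. The TMM factor of control 4 was 0.906, against 0.982 to 1.01 in the other controls, and a lower factor raises CPM. As an unscaled share of counts, the Nduf genes made up 0.811%, 0.865%, 0.890% and 0.858% in controls 1 to 4. In cKO 1 to 4 they made up 0.707%, 0.718%, 0.650% and 0.763%. The difference between the mean shares was -17.1%, against -21.9% for the TMM-scaled sum. The TMM factors of the cKO libraries were 1.01 to 1.04. The part of the scaling in the rank of control 4 was not tested. Among cKO libraries, cKO 3, from the female, was the lowest for 34, while cKO 4 was the highest for 24 and cKO 2 for 18. With each gene's genotype mean removed, the 1035 pairs of Nduf genes had a median Pearson correlation of 0.52 over the 8 libraries, and 88.4% of pairs were above 0. These pairs share the same libraries and the same scaling factors, so this only describes how far the genes moved as 1 block. The 46 genes are therefore not 46 separate measurements of the genotype effect. In 33 of the 46 the controls and cKO libraries did not overlap, with cKO lower, a pattern found in 11.8% of all tested genes.

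Promoters of 5 Nduf genes are printed: Ndufb4 had the largest fall, Ndufb10 the smallest adjusted p, Ndufa8 and Ndufs8 were called lower at each setting tried, and Ndufb3 had the highest log2 fold change though it was not called. They are no sample of the 46, since 3 of the 4 that fell hold the NRF1 letters, against 8 of the 27 genes with a promoter entry that fell. Each window is the 250 bases before the RefSeq transcript start in GRCm38.p6, written 5′ to 3′ on the strand of the gene: chr16:37654369-37654618 (minus strand) for Ndufb4, chr17:24724424-24724673 (minus) for Ndufb10, chr2:36049339-36049588 (minus) for Ndufa8, chr19:3912775-3913024 (minus) for Ndufs8 and chr1:58586147-58586396 (plus) for Ndufb3. Capitals mark matches, on either strand, to 3 letter patterns: GCGCNTGCG for NRF1 (9 capitals), GGGCGG for SP1 (6 capitals) and AAGGTCA for the oestrogen-related receptors (7 capitals).
Ndufb4: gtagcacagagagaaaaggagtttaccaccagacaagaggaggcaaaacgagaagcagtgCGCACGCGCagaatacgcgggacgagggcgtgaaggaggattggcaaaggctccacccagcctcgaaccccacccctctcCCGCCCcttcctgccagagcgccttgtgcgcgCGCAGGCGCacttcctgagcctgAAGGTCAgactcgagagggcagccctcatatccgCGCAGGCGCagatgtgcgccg
Ndufb10: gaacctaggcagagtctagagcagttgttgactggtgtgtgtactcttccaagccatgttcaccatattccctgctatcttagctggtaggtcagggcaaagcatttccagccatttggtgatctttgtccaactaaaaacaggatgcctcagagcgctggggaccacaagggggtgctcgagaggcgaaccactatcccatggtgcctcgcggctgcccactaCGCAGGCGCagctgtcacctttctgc
Ndufa8: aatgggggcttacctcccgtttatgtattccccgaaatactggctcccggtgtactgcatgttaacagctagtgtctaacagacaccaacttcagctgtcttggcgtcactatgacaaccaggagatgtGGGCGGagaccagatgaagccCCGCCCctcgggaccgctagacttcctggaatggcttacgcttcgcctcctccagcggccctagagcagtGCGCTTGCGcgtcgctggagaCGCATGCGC
Ndufs8: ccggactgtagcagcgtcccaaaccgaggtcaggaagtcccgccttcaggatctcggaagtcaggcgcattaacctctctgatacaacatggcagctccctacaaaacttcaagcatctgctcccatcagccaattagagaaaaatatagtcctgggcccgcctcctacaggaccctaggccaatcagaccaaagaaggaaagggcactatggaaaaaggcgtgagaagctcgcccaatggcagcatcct
Ndufb3: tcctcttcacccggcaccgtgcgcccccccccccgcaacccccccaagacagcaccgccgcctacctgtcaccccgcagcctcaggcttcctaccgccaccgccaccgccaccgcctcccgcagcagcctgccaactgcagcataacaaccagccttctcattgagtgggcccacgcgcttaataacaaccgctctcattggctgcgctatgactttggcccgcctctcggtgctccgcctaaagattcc

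In the Ndufb4 window the NRF1 letters begin at -190, -78 and -21 from the start, the receptor letters at -55 and the SP1 letters at -110. Ndufb10 had 1 match, NRF1 at -26, and Ndufa8 had NRF1 at -30 and -9 and SP1 at -121 and -100. None of these letters stand in the Ndufs8 and Ndufb3 windows. RefSeq gave 42 promoter entries for 40 of the 46 genes. The NRF1 letters were in 10 of the 42 (23.8%), against 5.19% of 32851 promoters of the same length, and the SP1 letters in 19 (45.2% against 32.7%). The receptor letters were in 3 (7.14% against 4.08%), the YY1 letters AANATGGCG in 2 (4.76% against 1.12%) and the ETS letters CCGGAAGT in 0 (against 2.88%). No matches to different patterns overlapped each other. The median GC content was 58.2% in the Nduf windows and 52.4% over all promoters. Of the 9 genes with the NRF1 letters 8 fell (Ndufa11, Ndufa12, Ndufa5, Ndufa8, Ndufaf4, Ndufb10, Ndufb4 and Ndufs6, with Ndufs5 not called), and of the 31 without them 19 fell, with median log2 fold changes of -0.40 and -0.33. A match of letters is no evidence of binding.

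The 3 Ndufv genes encode the tip of the matrix arm, where NADH is oxidised, and all 3 fell. Ndufv2, a core subunit with an iron-sulphur cluster, held 372.9, 400.2, 427.0 and 435.8 CPM in controls and 302.3, 297.8, 271.2 and 327.0 in cKO. Every control lay above every cKO library, and the level fell 1.37-fold (log2 fold change -0.45 ± 0.08 SE, adjusted p = 0.00304). Ndufv1, which binds NADH and the flavin, fell less, with a log2 fold change of -0.33 (adjusted p = 0.0149), and the accessory subunit Ndufv3 had -0.47 (adjusted p = 0.00669). Neither overlapped between genotypes.

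The 8 Ndufs genes hold the other nuclear core subunits and 3 accessory ones, and 6 of them fell, with a median log2 fold change of -0.38. Ndufs7 (chr10:80249121-80256794), a core subunit at the site where quinone is reduced, held 150.8, 134.2, 160.9 and 148.0 CPM in controls and 107.0, 109.8, 94.0 and 108.4 in cKO. Its cKO values were lower without overlap and those other than cKO 3 lay within 3 CPM of each other, and it fell 1.42-fold (adjusted p = 0.00136).

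Ndufs8 (chr19:3908863-3912774), which carries iron-sulphur clusters close to the quinone site, held 138.7, 152.5, 149.3 and 175.4 CPM in controls and 108.7, 106.0, 89.2 and 115.5 in cKO. Control 4 was its highest library and cKO 3 its lowest, with a space between the genotypes, and it fell 1.47-fold (log2 fold change -0.55 ± 0.10, adjusted p = 0.00238). With the cardiomyocyte markers as the scale its log2 fold change was -0.31 (adjusted p = 0.0456). The core subunit Ndufs3 and the accessory subunits Ndufs6 and Ndufs4, which join late with the NADH module, fell with log2 fold changes of -0.36, -0.41 and -0.35. For Ndufs4 the genotypes overlapped, since cKO 4 (157.5 CPM) lay above control 1 (149.0 CPM). Ndufs1, the largest core subunit, and Ndufs5 were not called, with log2 fold changes of -0.28 (adjusted p = 0.0802) and -0.19 (adjusted p = 0.246). Ndufs1 held 689.6, 721.3, 892.1 and 696.9 CPM in controls, so control 3 was far above the rest, and 599.4, 612.9, 571.4 and 692.3 in cKO.

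Seen by module, the 7 nuclear core subunits had a median log2 fold change of -0.44 and 6 of them fell. The 29 supernumerary subunits, without Ndufa4 and Ndufa4l2, had a median of -0.37 and 23 fell. In the quinone-reducing module all 5 genes fell (median -0.44), and in the NADH-oxidising module 7 of 8 (median -0.37). All 7 core genes also belong to these modules, and whether the medians differ was not tested.

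**Figure D3:**
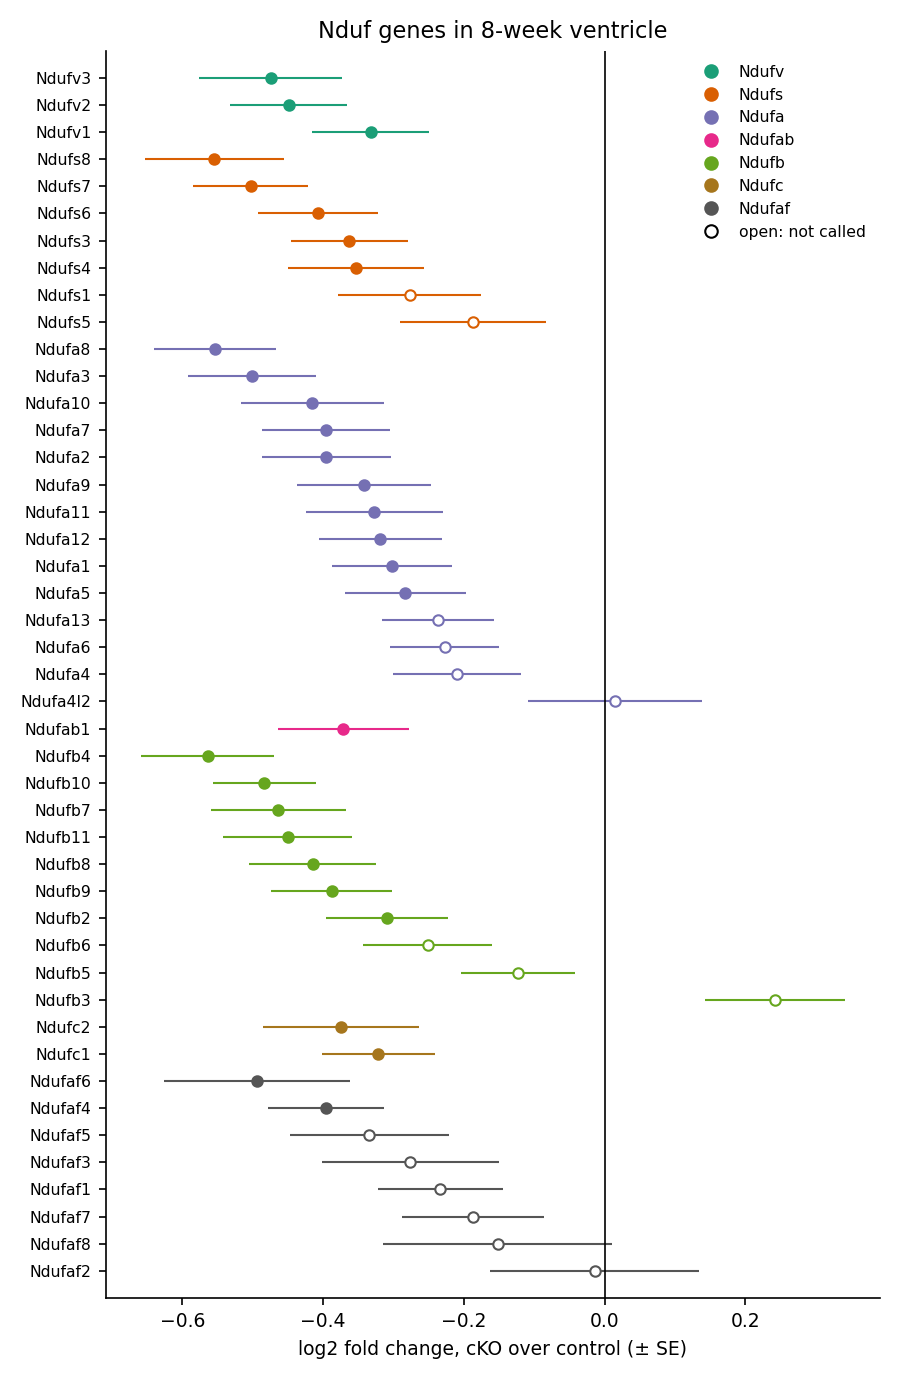
Log2 fold change (cKO over control, horizontal axis) with its standard error for 45 of the Nduf genes, ordered by name group. Filled points are genes called lower at an adjusted p under 0.05 and the 15 open points were not called. Scaled to cardiomyocyte markers, 2 are called lower (Ndufa8, Ndufs8) and Ndufb3 is called higher, with 2.99% of all tested genes lower.

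Of the 14 Ndufa genes, which encode accessory subunits of both arms, 10 fell and the median log2 fold change was -0.32. Ndufa8 (chr2:36036326-36049406), a subunit on the intermembrane-space face whose promoter is printed above, held 210.8, 206.0, 220.0 and 254.9 CPM in controls and 153.8, 162.1, 139.4 and 152.2 in cKO. The lowest control was over 40 CPM above the highest cKO library. Ndufa8 fell 1.47-fold (log2 fold change -0.55 ± 0.09, adjusted p = 0.00104), and over the alternative settings its log2 fold change ran from -0.60 to -0.30. Ndufa3, a small membrane-arm subunit, held 114.6, 113.6, 103.5 and 119.7 CPM in controls and 82.4, 83.7, 67.0 and 85.9 in cKO. Its genotypes did not overlap and cKO 3 was the lowest library, and it fell 1.41-fold (adjusted p = 0.00268).

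The other 8 Ndufa genes that fell were Ndufa10, Ndufa7, Ndufa2, Ndufa9, Ndufa11, Ndufa12, Ndufa1 and Ndufa5, with log2 fold changes from -0.42 to -0.28. Ndufa5 was nearest the threshold (adjusted p = 0.0382). Ndufa13 and Ndufa6 were not called (log2 fold changes -0.24 and -0.23, adjusted p = 0.0587 and 0.0607), although their genotypes did not overlap. Ndufa6 is 1 of the subunits of the LYR family that hold the acyl carrier protein Ndufab1. Ndufab1 itself, which also serves mitochondrial fatty acid synthesis, held 129.5, 144.7, 155.6 and 134.1 CPM in controls and 111.2, 100.3, 99.9 and 124.6 in cKO. It fell 1.29-fold without overlap (log2 fold change -0.37 ± 0.09, adjusted p = 0.0155).

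The complex IV subunit Ndufa4 and its paralog Ndufa4l2, which is known as a target of hypoxia signalling, were not called. Ndufa4 held 280.0, 309.8, 356.9 and 329.1 CPM in controls and 265.4, 278.5, 255.9 and 303.2 in cKO, with overlap between cKO 4 and control 1 (log2 fold change -0.21 ± 0.09, adjusted p = 0.135). Ndufa4l2 was scarce, at 10.6, 9.85, 9.18 and 12.8 CPM in controls and 10.6, 11.03, 11.04 and 10.1 in cKO. Its genotypes lay on top of each other (log2 fold change 0.01 ± 0.12, adjusted p = 0.953).

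The 10 Ndufb genes encode subunits of the membrane arm, and 7 of them fell, with a median log2 fold change of -0.40. Ndufb10 (chr17:24722060-24724478), of the distal part of that arm, had the smallest adjusted p of the 46. It held 351.6, 370.1, 359.3 and 395.6 CPM in controls and 258.9, 266.5, 249.5 and 281.2 in cKO. The 4 values of each genotype lay close together and far from the other genotype, and Ndufb10 fell 1.40-fold (log2 fold change -0.48 ± 0.07, adjusted p = 0.000896). Ndufb4 (chr16:37647170-37654453), with its 3 matches to the NRF1 letters, held 28.2, 30.9, 36.2 and 34.5 CPM in controls and 23.1, 21.6, 20.5 and 22.7 in cKO. Its fall, 1.48-fold, was the largest of the 46 (log2 fold change -0.56 ± 0.09, adjusted p = 0.00165), from a mean control level of 16.9 CPM per kb. A processed pseudogene with the same sequence over 390 bases exists for Ndufb4, so how its reads were assigned is uncertain.

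Ndufb11, encoded on the X chromosome, held 180.5, 209.6, 214.9 and 228.7 CPM in controls and 149.2, 157.8, 136.9 and 166.3 in cKO. Control 1 was the lowest control but still above all cKO libraries, and Ndufb11 fell 1.37-fold (adjusted p = 0.00512). Ndufb7, Ndufb8, Ndufb9 and Ndufb2 also fell, with log2 fold changes from -0.46 to -0.31, and Ndufb6 was not called (-0.25, adjusted p = 0.0794). Ndufb5 was not called either (log2 fold change -0.12, adjusted p = 0.333), and 616 bases of its exons overlap exons of Mrpl47 on the other strand.

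Ndufb3 (chr1:58586384-58595964), another membrane-arm subunit, is described because it departed from the rest, a choice made after its values were seen. It held 82.9, 98.2, 111.1 and 89.6 CPM in controls and 104.5, 107.8, 114.2 and 124.9 in cKO. The cKO libraries were on the whole higher, but control 3 lay among them, and the log2 fold change of 0.24 ± 0.10 did not pass (adjusted p = 0.115). Without control 3 it was called higher (log2 fold change 0.32, adjusted p = 0.0304), and with the cardiomyocyte markers as the scale likewise (0.48, adjusted p = 0.0162). Over all alternatives the log2 fold change of Ndufb3 ran from 0.18 to 0.48 and was never below 0. A near-identical processed pseudogene, Gm45930, held 0 to 3 counts in a library.

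The membrane-arm subunits Ndufc1 and Ndufc2 both fell. Ndufc1 held 99.9, 113.5, 113.6 and 125.2 CPM in controls and 89.6, 91.5, 86.2 and 94.6 in cKO. The highest cKO library came within 6 CPM of the lowest control, and the fall was 1.25-fold (log2 fold change -0.32 ± 0.08, adjusted p = 0.0161). For Ndufc2 the log2 fold change was -0.37 (adjusted p = 0.0341), with overlap between cKO 4 (96.6 CPM) and control 1 (87.9 CPM).

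Of the 8 Ndufaf genes, the assembly factors, 2 fell, and the median log2 fold change was -0.25. Ndufaf4 (chr4:24898083-24905001), which acts early on the quinone module together with Ndufaf3, held 106.2, 103.0, 122.6 and 107.9 CPM in controls and 88.3, 76.7, 81.1 and 88.2 in cKO. The genotypes did not overlap, and Ndufaf4 fell 1.32-fold (log2 fold change -0.40 ± 0.08, adjusted p = 0.00577). Ndufaf6 held 10.9, 14.3, 15.5 and 13.4 CPM in controls and 9.60, 10.5, 8.23 and 10.1 in cKO. Its highest cKO library nearly reached control 1, and its fall of 1.41-fold (log2 fold change -0.49 ± 0.13, adjusted p = 0.0221) was lost without control 2, control 3, cKO 1 or cKO 3. Its adjusted p ran from 0.00569 to 0.230 over all settings.

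The other 6 Ndufaf genes were not called and had negative log2 fold changes: Ndufaf5, which hydroxylates Ndufs7, had -0.33 (adjusted p = 0.0584), Ndufaf3 -0.28, Ndufaf1 -0.23, Ndufaf7, a methyltransferase, -0.19, and Ndufaf8 -0.15. Ndufaf2, a paralog of Ndufa12 that helps to attach the NADH module, had the lowest level of the 46 per kilobase, 4.42 ± 0.58 CPM per kb in controls. It held 10.9, 14.99, 13.1 and 13.6 CPM in controls and 10.4, 11.7, 14.3 and 15.7 in cKO. Its genotypes overlapped throughout (log2 fold change -0.01 ± 0.15, adjusted p = 0.963), and 1955 bases of its exons overlap a non-coding gene on the other strand. Levels of the Ndufaf genes per kilobase ran from 4.42 to 39.5 CPM per kb in controls (highest in Ndufaf1), below most subunits. Their standard errors ran from 0.08 (Ndufaf4) to 0.16 (Ndufaf8). Whether the assembly factors differ from the subunits, of which 29 of 38 fell with a median of -0.37, was not tested.

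**Figure D4:**
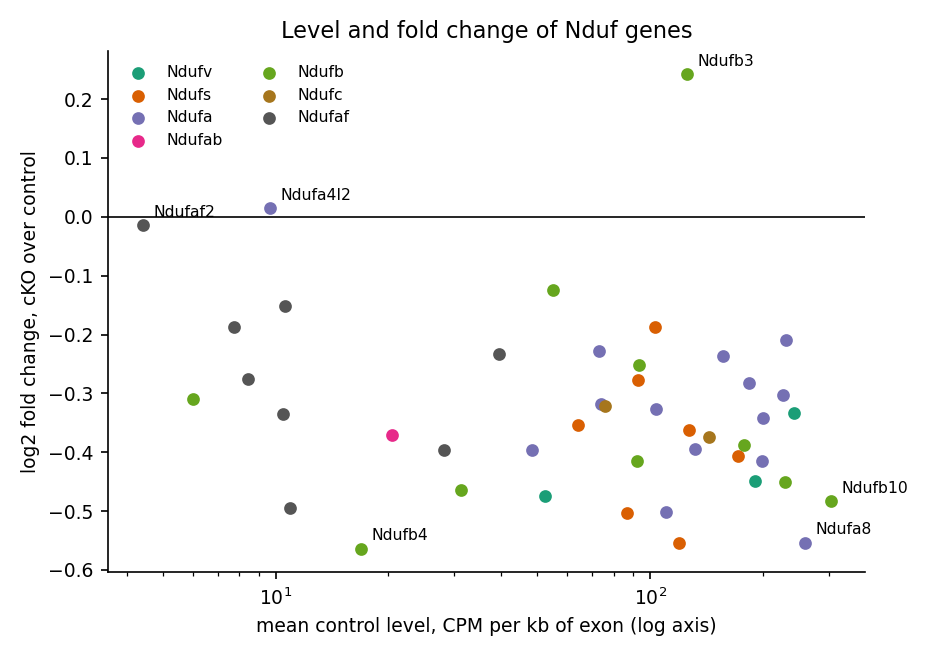
Mean control level of 45 of the Nduf genes (CPM per kilobase of exon, log axis) against its log2 fold change, coloured by name group. The lowest level is 4.42 (Ndufaf2), the genes above 39.5 CPM per kb other than Ndufb3 lie below 0 (at this scaling, though not all when scaled to cardiomyocyte markers), and Ndufa4l2 and Ndufaf2 sit near 0.

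Across the 46 genes the log2 fold changes had an SD of 0.16, against a median standard error of 0.09. Their Spearman correlation with the control level per kilobase was -0.28 and with exon length -0.05, both over genes that share the same libraries and given without a test. The length used counts every annotated exon base, whether or not the heart uses it, which can lower the level per kilobase of genes with a long total such as Ndufab1 (6883 bases).

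For Ndufa12, which sits in the NADH module, a near-identical copy also held counts in some libraries. The processed pseudogene Gm15920 on chromosome 5 (chr5:130188395-130188796) matches it at 99.5% over 402 bases. It held 4, 5, 621 and 952 counts in controls and 428, 9, 9 and 424 in cKO, while Ndufa12 held 2659, 2364, 2974 and 1976 counts and 1990, 2300, 2353 and 2237. Controls 3 and 4 and cKO 1 and 4 thus carried 424 to 952 counts at the copy and the other libraries fewer than 10, a pattern that does not follow genotype or sex. Control 3 had the highest Ndufa12 level of all libraries (125.2 CPM) and control 4 the lowest of the controls (103.3 CPM). Whether reads of Ndufa12 were assigned to the copy was not tested. With the counts of both added together, a choice made after they were seen, the log2 fold change of Ndufa12 went from -0.32 (adjusted p = 0.0247) to -0.40 (adjusted p = 0.0212). The count of Nduf genes that fell stayed at 31 when near-identical copies of 6 genes were added in this way.

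The sexes were compared over both genotypes, 2 females against 6 males. No Nduf gene was called (edgeR quasi-likelihood test with genotype in the fit), against 0.554% of all tested genes. At an unadjusted p under 0.05 there were 2, Ndufa3 and Ndufv3, with log2 fold changes of -0.24 and -0.26 (female over male), and 12.7% of all tested genes reached that level. With 1 female in each genotype a difference between the sexes in the genotype effect could not be tested. Among males alone 18 Nduf genes were lower, while 7.26% of all genes in that fit were lower. The Nduf median log2 fold change was -0.30 and the summed difference -18.9%.

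The other parts of complex I were set beside the Nduf genes. Of 13 assembly factors without the Nduf name 12 were tested, 8 fell and 0 rose, while 9.64% of all tested genes fell. Their median log2 fold change was -0.35. Scaled to the cardiomyocyte markers 2 of them were lower (with 2.99% of all tested genes lower) and the median was -0.10. The oxidoreductase-like factor Foxred1 fell the most, from 86.0 ± 6.25 CPM to 47.4 (log2 fold change -0.86 ± 0.10, adjusted p = 0.000189), a 1.82-fold lower level, further than any Nduf gene. Ecsit, which binds Ndufaf1 in an early assembly complex, fell 1.48-fold (adjusted p = 0.000587), and Tmem70, a factor for complexes I and V, fell 1.42-fold (adjusted p = 0.00553). The 7 core subunits made in the mitochondria, mt-Nd1 to mt-Nd6 and mt-Nd4l, were not called in the edgeR test. They had 6 negative log2 fold changes, a median of -0.20 and no unadjusted p under 0.05 (lowest 0.0678, mt-Nd1). Their standard errors ran from 0.11 (mt-Nd6) to 0.38 (mt-Nd3), against a median of 0.09 for the Nduf genes. In controls mt-Nd3 and mt-Nd4l held means of 12.9 and 19.7 CPM, and the others at least 5385. Whether these subunits differ from the Nduf genes was not tested. Mitochondrially encoded genes as a whole held 10.05%, 9.15%, 8.94% and 11.8% of counts in controls and 8.91%, 9.29%, 8.03% and 9.26% in cKO, which overlap.

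**Figure D5:**
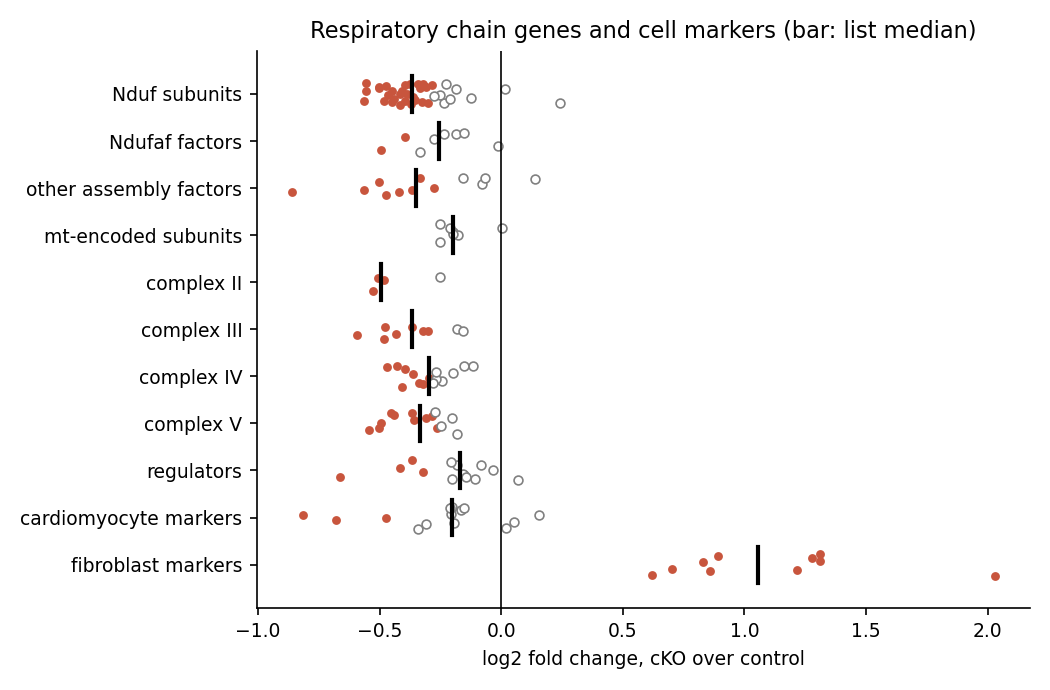
Log2 fold change (cKO over control) of single genes in the 38 Nduf subunits, 8 Ndufaf factors, other assembly factors, mitochondrially encoded subunits, complexes II to V, regulators and 2 marker lists; filled points are called at an adjusted p under 0.05, black bars are list medians. The respiratory chain lists have medians from -0.49 to -0.20, the cardiomyocyte markers -0.20 and the fibroblast markers 1.05; scaled to the cardiomyocyte markers the chain lists have medians from -0.25 to 0.06.

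Genes of the other respiratory complexes were lower as well at this scaling. Of the 42 tested nuclear genes of complexes II to V 28 fell and 0 rose, while 9.64% of all tested genes fell. Their median log2 fold change was -0.33, next to 31 of 46 and -0.35 for the Nduf genes. By complex, 3 of 4 genes fell in complex II (median -0.49), 7 of 9 in complex III (-0.36), 8 of 15 in complex IV (-0.29) and 10 of 14 in complex V (-0.33). The largest called falls were Uqcrc1 of complex III, Atp5a1 of complex V and Sdha of complex II, with log2 fold changes of -0.59, -0.54 and -0.53. Scaled to the cardiomyocyte markers, 6 of these 42 genes were lower and 0 higher. In that fit 2.99% of all tested genes were lower, and 3465 of 16051 were higher.

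Among 14 regulators of mitochondrial genes 4 fell and 0 rose, while 9.64% of all tested genes fell. Their median log2 fold change was -0.17. Scaled to the cardiomyocyte markers it turned to 0.08 with 1 gene lower, while 2.99% of all tested genes were lower. Ppara, a nuclear receptor for fatty acids, fell 1.58-fold from 71.8 ± 7.44 CPM to 45.3 (log2 fold change -0.66 ± 0.09, adjusted p = 0.000509). Polrmt, the mitochondrial RNA polymerase, fell 1.33-fold (adjusted p = 0.0281), and the coactivators Ppargc1b and Ppargc1a had log2 fold changes of -0.32 and -0.37 (adjusted p = 0.0303 and 0.0325). Nrf1 and Esrra, whose letters were searched for above, were not called (log2 fold changes -0.20 and -0.15), nor were Gabpa and Yy1 (-0.04 and -0.11).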

How the data were processed

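Polyadenylated RNA of 8 ventricle libraries was used, and the series' libraries of newborn mice and its other tables were not analysed here. The authors deposited raw counts, 1 row per gene symbol and 1 column per library. Tools listed in the submitters' processing notes are HISAT2 2.0.4, featureCounts 1.6.0, FastQC 0.11.4 and edgeR 3.30.3, with builds mm10 and GRCm38. The strand setting of the counting and the treatment of multiply aligned reads were not given in the sources used here. Of the 46 genes, 17 share exon bases with a gene on the other strand, 3 with one on the same strand, and 8 have an annotated near-identical pseudogene (blastn 2.17.0, at least 95% over at least 200 bases).

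Genotypes were compared with the quasi-likelihood test of edgeR 4.0.16 (R 4.3.3, limma 3.58.1) over all genes passing filterByExpr, with TMM scaling, genotype as the only term and Benjamini-Hochberg adjustment over 16051 genes. Tests were two-sided and called at an adjusted p under 0.05, and each standard error is the size of the log2 fold change over the root of its F statistic. The common biological coefficient of variation was 0.16. CPM is scaled by TMM, and log2 CPM in plots uses a prior count of 2. The 24 rows with a number for a symbol (at most 0.132% of counts) were left out. The script was tested on simulated data. Positions, lengths and gene types are from GENCODE M21 (GRCm38), and promoters from RefSeq (GRCm38.p6), whose transcript starts can differ from GENCODE's.

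Members and lists were chosen with earlier results of these data known. Per-library values are given for the 10 called Nduf genes with the smallest adjusted p, the members with the smallest p in each name group, the highest and lowest per kilobase, and Ndufa4 and Ndufa4l2, and 1 gene this takes is not reported here. Up to 3 genes with the smallest adjusted p come from the other lists. Ndufs1, Ndufb3, Ndufa12, Gm15920, Ppargc1a and the regulators that were not called were named after their values were seen. Alternatives were DESeq2 1.42.0 size factors, total counts, other filters, DESeq2, limma-voom, a sex term, males only, no mitochondrial genes, an adjusted p under 0.01, each library left out, and 2 added later (marker scaling, near-identical copies added). No label pairs libraries across genotypes, and no 2 libraries were alike.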

Additional observations from a re-analysis of the deposited data

Results flagged for a closer look

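Groups of 4 libraries (46 Nduf genes and the Nduf sum, in each genotype) were searched for 1 library apart from the other 3. In 7 of 94 groups its gap to the nearest, as a share of the group's range, passed Dixon's 95% critical value. Chance gives about 1 such group in 20. The measure is relative to the range, so a flagged gap can be small in CPM, as for Ndufaf3. In control 4 the level was high for Ndufa10 (779.4 CPM, next 626.0), Ndufa9 (482.3 CPM, next 402.5) and Ndufb8 (334.0 CPM, next 276.4). Control 3 was high for Ndufs1 (892.1 CPM, next 721.3) and low for Ndufaf3 (14.48 CPM, next 15.48). Ndufs4 was low in control 1 (149.0 CPM, next 180.0) and high in cKO 4 (157.5 CPM, next 128.7). Without control 4 Ndufa9 was no longer called lower, while Ndufa10 and Ndufb8 still were. Ndufs1 was not called without control 3 either.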

How the results depend on the processing

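The count of Nduf genes that fell was 31, while 9.64% of all tested genes fell. In males only it was 18, while 7.26% of all genes fell. At an adjusted p under 0.01 it was 17, while 5.09% of all genes fell. With 1 library left out it was 20 to 29 (20 without cKO 1), while 6.75% to 8.67% of all genes fell. At the other planned settings it was 21 to 35, while 5.27% to 11.3% of all genes fell. The median log2 fold change of the Nduf genes was negative at all of these settings. The count that rose was 0, or 0 to 1 with 1 library left out (1, Ndufb3, without control 3). Scaled to the cardiomyocyte markers, chosen after seeing the data, 1 rose and 2 fell, the median was -0.10 and the summed difference -7.41%. In that fit 2.99% of all tested genes fell and 87.8% of called genes were higher. The markers themselves differ between genotypes and vary between libraries, and the cause of the change was not tested. With total counts only, 21 Nduf genes fell, while 6.36% of all genes fell. The Nduf median was then -0.26 and the summed difference -17.1%. In that fit the median of all genes moved up by 0.08 and 66.1% of called genes were higher, against 50.02%. Of the 31 calls 2 (Ndufa8 and Ndufs8) were kept at an adjusted p under 0.05 at every setting tried. No called gene changed sign. No paired analysis was possible because no label pairs libraries across genotypes. The scarce genes Ndufaf8 and Ndufaf2 had the widest standard errors (0.16 and 0.15).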
